A study of Mus musculus with 24 samples.

Results

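The genes examined were Apoa1, Apoa2, Apoa4, Apoa5, Apob, Apoc3, Apoe and Apom, which encode apolipoproteins, together with Mttp and Creb3l3. They were chosen by name, with earlier results of these data known: every gene probe whose annotated symbol equals a listed symbol was taken. This gave 10 genes of 21334 tested and 17 probes of 56605, and all 17 lay among the 32038 probes that passed the filter on dim signals. The brightest probe of each gene stood for it, and each of these 10 probes was well above background on 6 of 6 arrays in every group.

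The samples were livers of 24 male C57Bl/6J mice in 4 groups of 6. LWT mice express the nuclear receptor PPARα in hepatocytes and LKO mice do not, as the series title describes the genotypes. The labels used here name neither the deleted stretch of the gene nor the Cre driver. In each genotype, 6 mice received vehicle (0.5% carboxymethyl cellulose in water) by gavage and 6 received CL316243, a selective agonist of the β3-adrenergic receptor, at 3 mg/kg (the groups labelled Beta3). Gavage took place at Zeitgeber time (ZT) 10, and all mice, fed a standard diet without restriction, were sacrificed at ZT16, 6 h later and 4 h after the lights went off at ZT12. Each mouse gave 1 single-colour array of total liver RNA. The design asks how liver transcripts respond to β3-adrenergic activation and whether the response depends on hepatocyte PPARα.

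The liver exports triglyceride in very-low-density lipoprotein (VLDL), a particle built in the endoplasmic reticulum when microsomal triglyceride transfer protein, encoded by Mttp, loads lipid onto apolipoprotein B. Smaller apolipoproteins move between particles and act on lipases and receptors, or form the frame of high-density lipoprotein (HDL). Creb3l3 encodes CREBH, a transcription factor held in the endoplasmic reticulum membrane of liver and intestine, which is released by cleavage in the Golgi apparatus and is known as an activator of Apoa4, Apoc2 and Fgf21. PPARα is a nuclear receptor activated by fatty acids, and it is best known in liver for the response to fasting.

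Every level below is a log2 value of the scanner's processed intensity relative to the 75th percentile of the same array, so that 1 unit is a doubling, and levels of different genes are not compared. A gene was called higher or lower where limma's p-value, adjusted by the Benjamini-Hochberg method over all 21334 genes of the comparison, was under 0.05. The arrays' 75th percentiles ranged from 397.4 to 577.7 intensity units. Summed linear levels of 6 hepatocyte markers (Alb, Ttr, Fabp1, Asgr1, Tat, Hnf4a) lay between 2329 and 3091 in every mouse, and all 6 markers were measured. In LWT mice the sums were 2373 to 2582 under vehicle (median 2545) and 2536 to 3091 under CL316243 (median 2790). In LKO mice they were 2388 to 2905 under vehicle (median 2455) and 2329 to 3026 under CL316243 (median 2719). The ranges overlapped in both genotypes, but the medians were higher under CL316243. The part of this shift in the results below was not tested. Ppara itself was lower in LKO than in LWT mice in all samples under vehicle (4.81 to 5.18 against 5.46 to 5.93) and under CL316243 (3.06 to 4.85 against 5.70 to 6.42), with differences of -0.68 (adjusted p = 0.158, not called, though 0.00181 without LKO CL316243 replicate 3) and -1.91 (adjusted p = 3.6e-07). This probe cannot check the genotype fully, because its place relative to the deletion is not given in the sources used here.

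In all, 3 arrays stood apart. On the array of LKO vehicle replicate 6, which had the lowest 75th percentile, the 100 brightest genes lay a median of 0.25 above their group means, and 99 of the 100 were above. LKO CL316243 replicate 3 had the highest summed level of the infiltrating myeloid markers S100a8, S100a9, Ly6g, Itgam and Ccr2, at 55.3 against 10.05 to 24.3 in the other 5 mice of its group, and its 100 brightest genes lay a median of 0.19 above the group means. LKO CL316243 replicate 4 deviated the other way: its 100 brightest genes differed from the group means by a median of -0.20, and 1 of the 100 was above. On the other 21 arrays this median lay between -0.11 and 0.11. Where leaving out 1 of these 3 arrays made or ended a call given below for a named gene, or moved its value by over 1.5 times, the value without it is given beside the result. In whole liver, fewer cells of a type and less RNA per cell cannot be told apart.

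In LWT livers, CL316243 raised 4 of the 10 genes (Apoa4, Creb3l3, Mttp and Apoa5) and lowered 0 (0 before adjustment of the p-values), where 18.9% of all genes were called higher and 19.4% lower. In LKO livers, 3 were called higher (Apoa4, Apoa5 and Apob), against 20.9% of all genes, and 1 was called lower (Apoa1), against 19.4%. The counts of higher genes are thus 4 of 10 beside a background near 2 in 10 in LWT, and 3 of 10 in LKO. The 10 genes and the lists were chosen with earlier results known, so such counts, here and below, are described and not tested. The median log2 difference of the 10 genes was 0.14 in each genotype, against 0.01 in LWT and 0.03 in LKO over all genes tested. These medians hold for the main processing only. Under other processing settings the uncalled differences of Apoa2, Apoc3 and Apoe changed sign. They reached -0.06, -0.14 and -0.07 in LWT, and -0.07, -0.15 and -0.10 in LKO, again not called.

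The difference between the responses, tested as the interaction of genotype and treatment, was called for 3 of the 10 genes: Apoa4, Creb3l3 and Mttp. All 3 had the smaller response in LKO livers, where 3.24% of all genes were called in that direction. In the other direction 0 were called, against 2.17% of all genes, and 1 passed the threshold before adjustment (Apob, adjusted p = 0.259). The median interaction of the 10 genes was -0.03, against 0.03 over all genes.

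Between genotypes under vehicle, limma called 0 of the 10 genes, where 0.398% of all genes were called higher in LKO and 0.778% lower. Before adjustment 1 of them, Creb3l3, passed as lower in LKO, and 0 as higher. Under CL316243, 3 genes (Creb3l3, Apoa4 and Mttp) were called lower in LKO than in LWT, against 8.17% of all genes, and 0 were called higher, against 7.74%. Before adjustment 1 passed as higher, Apob (0.22, adjusted p = 0.0854, and 0.0446 without LKO vehicle replicate 6). These comparisons share their CL316243 or vehicle groups with the responses above.

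**Figure D1:**
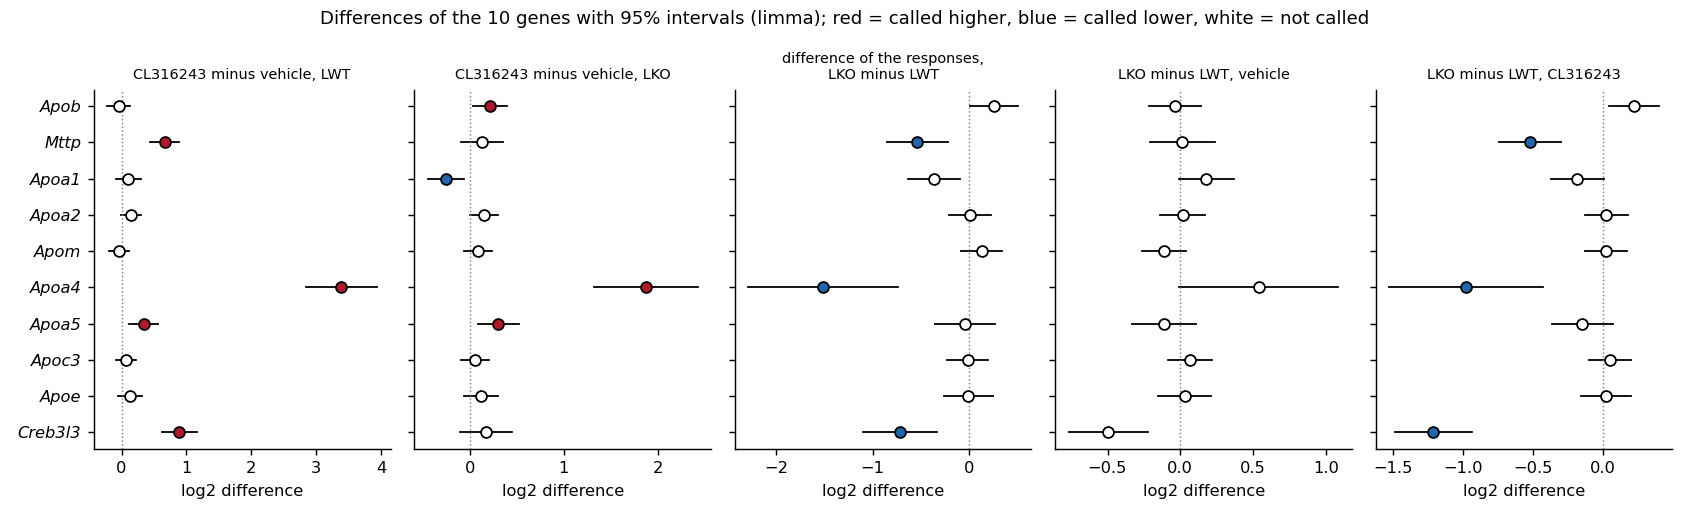
Log2 differences (points) with 95% intervals from limma (lines) for the 10 genes in the 5 comparisons, with a dotted line at 0. Filled points are called genes: Apoa4 stands apart at 3.39 in LWT and 1.87 in LKO, and Apoa4, Creb3l3 and Mttp are the filled points of the interaction panel; each panel has its own horizontal scale.

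Apoa4 encodes apolipoprotein A-IV, an exchangeable apolipoprotein of chylomicrons, VLDL and HDL. It changed more than any other of the 10 genes. In LWT livers its level was 4.199 at the lowest, 4.40 at the median and 4.86 at the highest under vehicle, and 7.04, 7.91 and 8.41 under CL316243. The groups lay far apart: the lowest treated mouse was above the highest control. The difference was 3.39 on the log2 scale (SE 0.26), or 10.5-fold, with an adjusted p of 2.184e-09.

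In LKO livers the level of Apoa4 was 4.34, 4.999 and 5.74 under vehicle (lowest, median, highest) and 5.95, 6.996 and 7.80 under CL316243. These groups did not overlap either, and the response was 1.87 (SE 0.26), or 3.66-fold, with an adjusted p of 1.139e-05. The LKO response was smaller than that of LWT by 1.52 log2 units (interaction -1.52, SE 0.37, adjusted p = 0.0174). Within each of the 3 slides, which held 2 mice of every group, the interaction was -1.81, -1.49 and -1.25. Under CL316243 the LKO mean was lower (LKO minus LWT -0.98, SE 0.26, adjusted p = 0.0127), although the ranges of the groups overlapped. The call under CL316243 was lost when only the groups compared entered the fit (adjusted p = 0.0562). Under vehicle the LKO mean was higher by 0.54, with a 95% interval from -0.01 to 1.09 and no call (adjusted p = 0.631). In order of their means, the groups ran from LWT vehicle through LKO vehicle and LKO CL316243 to LWT CL316243; the neighbours LWT and LKO vehicle overlapped, as did LKO and LWT CL316243.

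Creb3l3 rose in LWT livers and was not called in LKO livers. In LWT livers its level was 6.24, 6.48 and 6.90 under vehicle (lowest, median, highest) and 7.18, 7.40 and 7.56 under CL316243. All 6 treated LWT mice lay above all 6 controls, and the difference was 0.89 (SE 0.13), or 1.85-fold, with an adjusted p of 1.559e-05. In LKO livers the level was 5.72, 6.04 and 6.29 under vehicle and 5.65, 6.26 and 6.604 under CL316243. Here the groups overlapped, and the difference of 0.17 (95% interval from -0.10 to 0.45) was not called. Without LKO CL316243 replicate 3 it was 0.28, still not called (adjusted p = 0.0631).

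The interaction of Creb3l3 was -0.72 (SE 0.19, adjusted p = 0.0239), and -1.11, -0.33 and -0.72 within the 3 slides. Its call was lost without the filter on dim probes (adjusted p = 0.0578). Under CL316243 every LKO mouse was below every LWT mouse, a difference of -1.21 (SE 0.13), or 2.31-fold lower, with an adjusted p of 4.504e-07. Under vehicle every LKO mouse was below the LWT mean, the ranges overlapped only between 6.24 and 6.29, and the difference was -0.49 (SE 0.13, adjusted p = 0.0764), which is not called. An exact two-sided permutation test over all splits of these 12 mice gave p = 0.00433 for this single value, unadjusted, with 0.00216 the smallest it allows. Other uncalled differences also had small p by this test: Apoa2 and Apoe in LWT (0.00216 and 0.00649), and Apob between genotypes under CL316243 (0.00866). Without LWT vehicle replicate 3, LKO CL316243 replicate 3 or LKO CL316243 replicate 6, the vehicle difference of Creb3l3 was called (adjusted p = 0.0465, 0.0227 and 0.0494).

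Mttp encodes the lipid transfer protein that assembles VLDL. In LWT livers its level was 3.34, 3.44 and 3.63 under vehicle (lowest, median, highest) and 3.93, 4.15 and 4.24 under CL316243. Again no treated LWT mouse reached down to a control. The difference was 0.66 (SE 0.11), or 1.58-fold, with an adjusted p of 4.776e-05, and it was 0.68, 0.67 and 0.63 within the slides.

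In LKO livers the level of Mttp was 3.29, 3.49 and 3.61 under vehicle and 3.02, 3.71 and 3.87 under CL316243. A single treated mouse, replicate 3, was the lowest of all 24, at 3.02, and the other 5 lay between 3.53 and 3.87. The difference was 0.13 (95% interval from -0.10 to 0.35) and not called; without replicate 3 it was 0.24 and called (adjusted p = 0.0192), and without replicate 4 it was 0.07. The same mouse was the lowest of its group in Apoa4 (5.95) and in Creb3l3 (5.65), and it had the high myeloid marker sum given above, whose part in these levels was not tested. Without it the interactions of Apoa4, Creb3l3 and Mttp were -1.33, -0.61 and -0.42, each still called (adjusted p = 0.021, 0.0236 and 0.0203).

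The interaction of Mttp was -0.54 (SE 0.15, adjusted p = 0.0399), and -0.82, -0.42 and -0.37 within the slides. It is the least firm of the 3: the call was lost under 6 of 9 other settings and when any of 13 of the 24 mice was left out, with adjusted p from 0.0203 to 0.0701 over the mice left out. The difference under CL316243 was firmer, with every LKO mouse below every LWT mouse, at -0.52 (SE 0.11, adjusted p = 0.00142). The LWT and LKO vehicle groups overlapped throughout, with a difference of 0.02 and a 95% interval from -0.21 to 0.24.

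**Figure D2:**
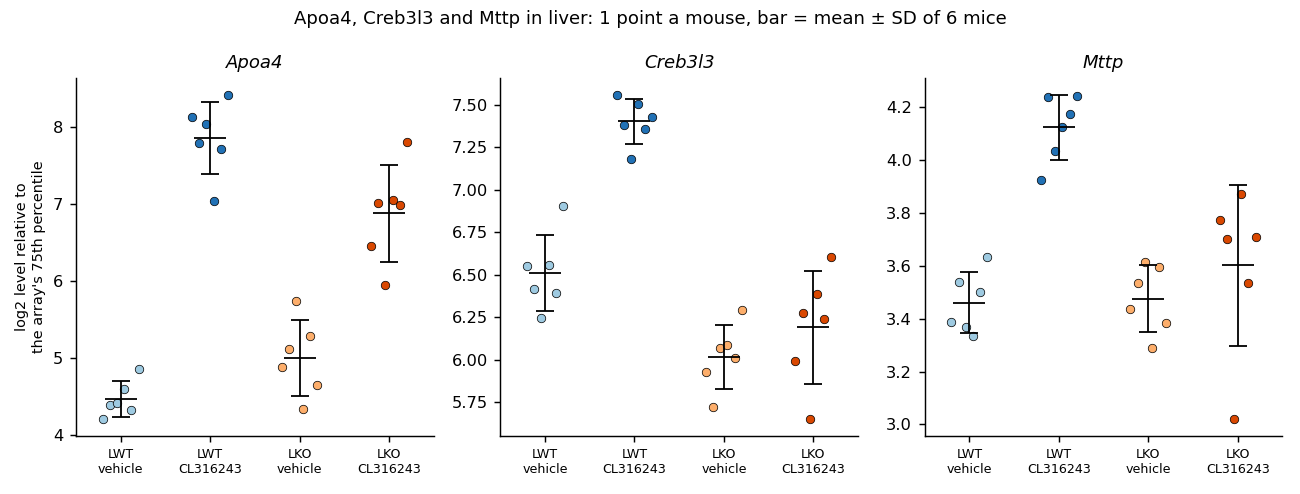
Log2 levels relative to the array's 75th percentile (vertical axes, own scale in each panel) of Apoa4, Creb3l3 and Mttp in the 4 groups. Points are mice and bars are the mean ± SD of 6: the treated LWT mice lie above all LWT controls in each panel, and the lowest treated LKO point of each panel is replicate 3, at 5.95, 5.65 and 3.02.

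Sequence upstream of these 3 genes is shown because they were the ones with a called interaction. The RefSeq-based table of promoters (build GRCm38.p6) held 14 start sites for 9 of the 10 genes, and Apoc3 had no entry. The 250 bases before each start of Apoa4, Creb3l3 and Mttp are printed 5′ to 3′ on the gene's strand. Capitals mark TGACG, the core letters of elements bound by the CREB and ATF family, and CAAAG, the opening letters of elements bound by HNF4, on either strand; on the opposite strand they read CGTCA and CTTTG. The Apoa4 stretch is chr9:46240594-46240843 on the plus strand. The Creb3l3 stretches are chr10:81092592-81092841 (start 1) and chr10:81098873-81099122 (start 2), and that of Mttp is chr3:138143419-138143668, all on the minus strand.
Apoa4: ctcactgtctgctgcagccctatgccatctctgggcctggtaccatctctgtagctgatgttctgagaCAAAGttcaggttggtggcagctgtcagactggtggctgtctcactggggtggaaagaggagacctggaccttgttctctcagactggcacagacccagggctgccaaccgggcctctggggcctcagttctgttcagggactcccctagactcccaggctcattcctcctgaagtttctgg
Creb3l3 start 1: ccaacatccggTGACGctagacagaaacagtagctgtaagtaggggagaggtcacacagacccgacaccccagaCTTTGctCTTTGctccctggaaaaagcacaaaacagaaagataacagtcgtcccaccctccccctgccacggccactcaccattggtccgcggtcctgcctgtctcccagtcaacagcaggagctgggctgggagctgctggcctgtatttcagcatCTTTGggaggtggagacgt
Creb3l3 start 2: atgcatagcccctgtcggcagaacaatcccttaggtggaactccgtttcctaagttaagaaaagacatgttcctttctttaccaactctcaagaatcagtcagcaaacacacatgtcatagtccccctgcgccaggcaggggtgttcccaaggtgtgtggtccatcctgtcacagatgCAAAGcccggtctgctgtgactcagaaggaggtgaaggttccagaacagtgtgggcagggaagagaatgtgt
Mttp: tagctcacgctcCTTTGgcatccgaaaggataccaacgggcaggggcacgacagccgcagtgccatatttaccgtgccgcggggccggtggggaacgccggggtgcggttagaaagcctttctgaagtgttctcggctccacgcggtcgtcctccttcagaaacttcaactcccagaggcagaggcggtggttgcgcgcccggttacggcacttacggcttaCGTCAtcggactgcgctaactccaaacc

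TGACG was found 239 bases before Creb3l3 start 1 and, on the opposite strand, 28 bases before the Mttp start, and not in the other 2 stretches. It occurs in 17.8% of the 32851 promoters of the same length, and in 3 of the 14 of the 10 genes, the remaining match being at Apoa2, which was not called in any comparison. CAAAG was present in all 4 stretches, 182 bases before Apoa4 and 3 times before Creb3l3 start 1, but 48.6% of all promoters and 9 of the 14 hold it. The letters GGNCANAGGNCA, which loosely describe the direct repeat bound by PPARα with its partner RXR, occur in 0.694% of all promoters and in 0 of these 14 windows. No match of TGACG overlapped a match of CAAAG. These matches are descriptions of letters in short windows, and binding was not measured.

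Apob encodes the structural protein of VLDL. Its level in LWT livers was 6.83, 6.97 and 7.18 under vehicle (lowest, median, highest) and 6.72, 6.97 and 7.13 under CL316243. In LKO livers it was 6.76, 6.93 and 7.30 under vehicle and 7.10, 7.16 and 7.29 under CL316243. The ranges overlapped in both genotypes. The LWT difference was -0.04 (95% interval from -0.22 to 0.14), while in LKO all 6 treated mice lay above the control mean, with a difference of 0.22 (SE 0.09, adjusted p = 0.0478). This call was lost under 7 of 10 other settings and without any of 15 of the 24 mice, with adjusted p up to 0.120. Another probe of Apob, farther towards the start of the transcript, gave 0.46 in LKO (adjusted p = 0.00176) and 0.14 in LWT (adjusted p = 0.325). The interaction of 0.26 was not called (adjusted p = 0.259).

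Apoa1 encodes the main protein of HDL, and it was called lower in LKO livers. There its level fell from 7.68, 7.94 and 8.12 (lowest, median, highest) under vehicle to 7.41, 7.70 and 7.85 under CL316243. The ranges overlapped, with all 6 treated mice below the control mean. The difference was -0.25 (SE 0.09, adjusted p = 0.0307), and -0.34, 0.06 and -0.48 within the slides, so that 1 slide of 3 did not show the fall. The call was lost under 3 of 10 other settings (adjusted p up to 0.0703) and without any of 6 mice: LKO vehicle replicates 4, 5 and 6 and LKO CL316243 replicates 2, 3 and 4 (adjusted p up to 0.0796). Without the 3 arrays that stood apart, each left out in turn, the difference was -0.247 (LKO vehicle replicate 6, adjusted p = 0.0504), -0.23 (LKO CL316243 replicate 3, adjusted p = 0.0655) and -0.20 (LKO CL316243 replicate 4, adjusted p = 0.0796). In LWT livers the difference was 0.11 (95% interval from -0.08 to 0.30), and the interaction of -0.36 was not called (adjusted p = 0.117), although it was without LWT vehicle replicate 3 (-0.42, adjusted p = 0.0465).

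Apoa2, the second protein of HDL, moved little. Its LWT levels were 9.32, 9.44 and 9.51 under vehicle and 9.51, 9.55 and 9.68 under CL316243 (lowest, median, highest), and these ranges only just failed to meet, at 9.510 against 9.512. The difference of 0.14 (95% interval from -0.01 to 0.30) was not called (adjusted p = 0.130). In LKO livers the difference was 0.15 (adjusted p = 0.107), and without LKO vehicle replicate 6, the array with the raised bright genes, it was 0.21 and called (adjusted p = 0.0156). It was called without LKO CL316243 replicate 4 as well, the array whose bright genes lay below the group means (0.20, adjusted p = 0.0314). The part of these shifts in the level of Apoa2, itself among the bright genes, was not tested. The other kept probe of Apoa2 gave 0.14 in LWT (adjusted p = 0.104) and 0.09 in LKO (adjusted p = 0.307), neither called.

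Apom, whose product carries sphingosine 1-phosphate on HDL, was called in 0 of the 5 comparisons. Its 24 levels ranged from 6.48 to 6.89. The differences were -0.04 in LWT and 0.09 in LKO, with 95% intervals from -0.19 to 0.11 and from -0.06 to 0.24, so that a change of more than 0.24 log2 units in either direction lay outside both.

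Apoa5, an exchangeable apolipoprotein that promotes the breakdown of triglyceride by lipoprotein lipase, was called higher in both genotypes. Its LWT levels were 8.10, 8.46 and 8.87 under vehicle and 8.71, 8.78 and 8.96 under CL316243 (lowest, median, highest). In LKO they were 8.05, 8.41 and 8.502 under vehicle and 8.42, 8.61 and 8.95 under CL316243. The ranges overlapped in each genotype, but all 6 treated mice lay above the control mean. The differences were 0.34 in LWT (SE 0.11, adjusted p = 0.0137) and 0.30 in LKO (SE 0.11, adjusted p = 0.0261), and the interaction was -0.04 (95% interval from -0.35 to 0.27). With quantile normalization both were 0.17 and neither was called (adjusted p = 0.112 in LWT and 0.0962 in LKO), and with the series table they were 0.18 and 0.17, again not called. The LKO call was lost as well without the filter on dim probes (adjusted p = 0.0577), with the mean of all kept probes (0.25, adjusted p = 0.0906), and without LKO vehicle replicate 2, LKO CL316243 replicate 2 or LKO CL316243 replicate 3 (0.25, adjusted p = 0.0732, for the last). Another, dimmer probe gave 0.56 in LWT (adjusted p = 0.00464) and 0.20 in LKO (adjusted p = 0.287).

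Apoc3, an inhibitor of lipoprotein lipase and of particle uptake, was not called in any comparison. Its 24 levels lay between 8.80 and 9.27, and its differences were 0.07 in LWT and 0.06 in LKO, with 95% intervals from -0.08 to 0.22 and from -0.09 to 0.21. Without LKO vehicle replicate 6 the LKO difference was 0.102, again not called. The other 2 probes of Apoc3 differed by 0.05 and 0.04 in LWT and by 0.01 and 0.00 in LKO, none of them called.

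Apoe, the ligand for receptor uptake of remnant particles, was called in none of the 5 comparisons either. Its LWT levels were 9.32, 9.43 and 9.49 under vehicle and 9.46, 9.55 and 9.64 under CL316243 (lowest, median, highest). The ranges overlapped by a narrow margin and the difference was 0.13 (95% interval from -0.05 to 0.31). In LKO livers the difference was 0.12 (adjusted p = 0.277), and without LKO vehicle replicate 6, whose level of 9.90 was the highest of all 24, it was 0.21 and called (adjusted p = 0.0136). The second probe of Apoe differed in sign in LKO, at -0.12 (adjusted p = 0.119), so no direction is given there. No spot of any gene probe was saturated on any array, and the brightest probes of Apoa2 and Apoe reached 50.6% and 50% of the saturation value.

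**Figure D3:**
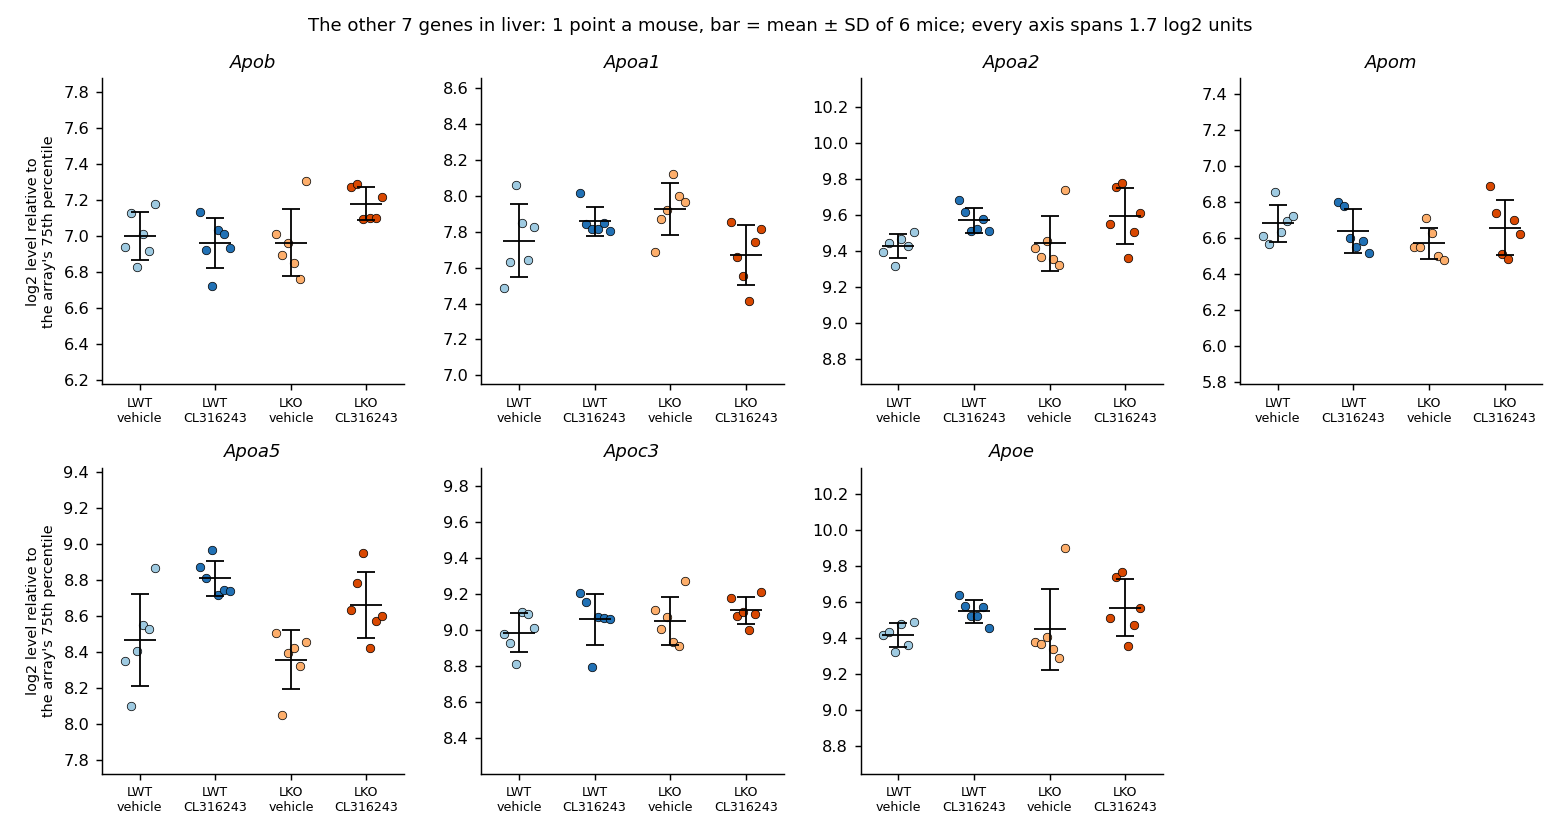
Log2 levels relative to the array's 75th percentile (vertical axes, of equal span) of the 7 genes without a called interaction, by group. Points are mice and bars are the mean ± SD of 6; the groups overlap in nearly every panel, and the single high point of Apoe under LKO vehicle, at 9.90, is replicate 6.

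Apoa1, Apoc3, Apoa4 and Apoa5 are neighbours in the genome. Their brightest probes lay within 41.6 kb of chromosome 9 on the mm9 build of the array's annotation, at chr9:46037921-46037980, chr9:46041134-46041193, chr9:46051206-46051266 and chr9:46079431-46079490 in that order. The LWT responses along this row were 0.11, 0.07, 3.39 and 0.34, and the LKO responses were -0.25, 0.06, 1.87 and 0.30. The 95% interval of Apoa4 in LWT, from 2.84 to 3.94, did not reach the upper bound of its neighbours Apoa1 (0.30), Apoc3 (0.22) or Apoa5 (0.56). Its response was the one above 1 log2 unit among the 4.

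Mttp had another probe, annotated to another transcript and 52.5 kb away on chromosome 3 (chr3:137806360-137806419 against chr3:137753868-137753927, mm9). It was dim: well above background on 0 of 6 vehicle and 5 of 6 CL316243 arrays of LWT mice, and on 3 of 6 and 1 of 6 of LKO mice. Its differences were 0.89 in LWT and 0.80 in LKO (adjusted p = 0.0181 and 0.0307), sizes that rest on signals near background. Averaging it with the bright probe gave Mttp a called response in LKO (0.46, adjusted p = 0.0168) and left the interaction uncalled (-0.32, adjusted p = 0.465).

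Other genes were ranked by likeness to Apoa4, Apoa5, Mttp and Creb3l3, as the root mean square difference of centred log2 levels over the 24 arrays, among 13331 named genes. Closest to Apoa4 were Sprr1a (0.34), Insig2 (0.47) and Rnf144a (0.57), against a spread of 1.44 of Apoa4 about its own mean. Their LWT responses were 2.79, 2.99 and 2.72, and their LKO responses were 2.11, 2.39 and 1.56. The interactions of -0.68, -0.59 and -1.16 were smaller in size than that of Apoa4 (-1.52). Closest to Creb3l3 were Acad11 (0.19), Tor1b (0.19) and Tram2 (0.19), against a spread of 0.57, and each had an LKO response smaller than its LWT response by 0.67 to 0.97. Closest to Mttp were Alg14 (0.13), Pex13 (0.14) and Hsd17b12 (0.16), against 0.32. Among the closest to Apoa5 were Gpr107 and Bfar, at 0.13 each, against a spread of only 0.24. This likeness is a description of levels on shared arrays.

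Genes of VLDL assembly and secretion other than Apob and Mttp were taken from a list of 17, all of them tested. In LWT livers 6 were called higher and 3 lower by CL316243 (18.9% and 19.4% of all genes), with a list median of 0.03 against 0.01 over all genes. The largest were Sec23a (0.96, adjusted p = 2.71e-09) and Sec24d (0.85, adjusted p = 1.29e-05), which encode coat proteins of the COPII vesicles that carry cargo out of the endoplasmic reticulum, and Sort1 (-1.01, adjusted p = 0.000119), a sorting receptor in the Golgi apparatus. In LKO livers 4 were called higher and 2 lower (20.9% and 19.4% of all genes), with a median of -0.03. Among them were Sort1 (-0.83), Ces1d (-0.68) and Apobec1 (0.57), the enzyme that edits Apob messenger RNA. With the mean of all kept probes, Sort1 in LKO was at -0.32 and not called (adjusted p = 0.0965). Between genotypes under vehicle limma called 0 of the 17 (1 before adjustment). Under CL316243, 1 was higher and 5 were lower in LKO (7.74% and 8.17% of all genes).

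The genes of that list whose response was called smaller in LKO numbered 4: Sec23a, Sec24a, Sar1b and Pla2g12b. They and the others of the next paragraphs are described after their values were seen, and no set of vesicle genes was tested as such. Mia2 and Mia3, which encode cargo receptors at the sites where COPII vesicles leave the endoplasmic reticulum, moved the other way in LWT, called lower by CL316243 at -0.62 and -0.40 (adjusted p = 0.00207 and 0.000296). In LKO they differed by -0.03 and -0.16, not called, and their interactions of 0.59 and 0.24 were not called either (adjusted p = 0.110 and 0.238). The inner coat gene Sec23a ranged in LWT mice from 0.67 to 0.92 under vehicle and from 1.54 to 1.84 under CL316243, and in LKO mice from 0.67 to 0.88 and from 0.80 to 1.35. The treated LWT mice were thus above every other mouse. Its response was 0.96 in LWT and 0.37 in LKO (adjusted p = 0.000567), an interaction of -0.60 (SE 0.11, adjusted p = 0.00131). With the mean of all kept probes the LKO response was 0.22 and not called (adjusted p = 0.144).

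Sec24a, which encodes a cargo-binding coat protein, ranged in LWT from 2.17 to 2.64 under vehicle and from 2.78 to 3.28 under CL316243, a rise of 0.57. In LKO it was at 2.39 to 2.66 under vehicle and 2.40 to 2.66 under CL316243, practically the same range, with a difference of 0.04 that was not called. The interaction was -0.53 (SE 0.11, adjusted p = 0.00587). Sar1b, the GTPase that starts coat assembly for large lipid cargo, rose by 0.56 in LWT (adjusted p = 0.000899), differed by -0.21 in LKO without a call, and had an interaction of -0.77 (SE 0.17, adjusted p = 0.0089). The lowest treated LKO mouse, at 3.85, was replicate 3, and without it the LKO difference was -0.09.

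Pla2g12b, a phospholipase family member of the endoplasmic reticulum needed for lipid loading of VLDL, was the fourth with a called interaction in this direction, at -0.65 (SE 0.11, adjusted p = 0.000806). It rose by 0.55 in LWT and differed by -0.11 in LKO (-0.05 without LKO CL316243 replicate 3). In LWT its groups did not overlap, at 2.20 to 2.49 against 2.83 to 3.03, and in LKO they covered 2.16 to 2.50 against 1.95 to 2.46. The COPII genes Sec24d and Sar1a rose in both genotypes (Sec24d by 0.85 and 0.55, Sar1a by 0.25 and 0.27), and their interactions of -0.30 and 0.02 were not called. In all, the list had 4 of 17 interactions called with the smaller response in LKO, against 3.24% of all genes, and 1 in the other direction (Apobec1, 0.79, adjusted p = 0.0345), against 2.17%. The calls of Sec23a, Sec24a, Sar1b and Pla2g12b held under all other settings run and with each mouse left out, and that of Apobec1 was lost under 2 of 9 settings and without any of 12 mice.

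**Figure D4:**
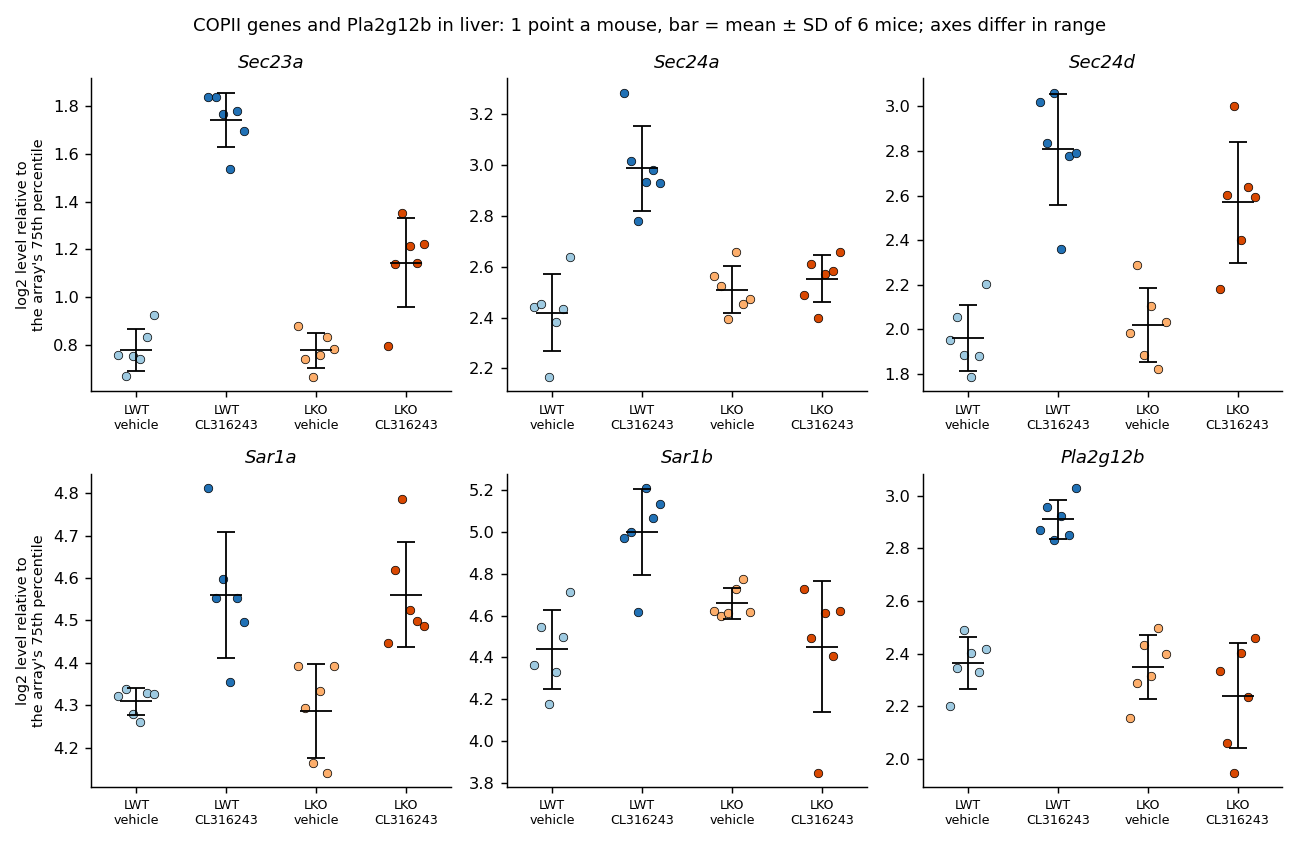
Log2 levels relative to the array's 75th percentile (vertical axes, own scale in each panel) of the 5 COPII genes of the list and of Pla2g12b, by group. Points are mice and bars are the mean ± SD of 6; Sec23a, Sec24a, Sar1b and Pla2g12b, the 4 with a called interaction, have their highest mean in LWT CL316243, as has Sec24d (2.81 against 2.57 in LKO CL316243), while Sar1a stands at 4.56 in both treated groups.

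Of 8 other apolipoprotein genes, all tested, 3 were called higher and 0 lower in LWT (18.9% and 19.4% of all genes). The list median was 0.17, against 0.01 over all genes. Those called higher were Apoc2 (0.36), the activator of lipoprotein lipase, Apod (0.26) and Clu (0.23). The level of Apod was low, with a mean of -3.77 under LWT vehicle, though well above background on all 6 arrays. Its LWT difference ran from 0.16 to 0.26 over the other settings. The count of higher genes was 1 without LWT vehicle replicate 5 or LWT CL316243 replicate 2. The Clu call was lost in LWT with quantile normalization (0.06, adjusted p = 0.398) and with the series table (0.07, adjusted p = 0.320), and those of Clu and Apod without the filter on dim probes (adjusted p = 0.0638 and 0.0543), where the count was 1. In LKO livers 1 was called higher, Clu (0.35), and 1 lower, Apoc4 (-0.27), against 20.9% and 19.4% of all genes. For Apoc4, 1 LKO vehicle array gave no value. Without LKO CL316243 replicate 3, Apod was called lower in LKO too (-0.27, adjusted p = 0.0121). Apoc2 ranged in LWT mice from 6.87 to 7.02 under vehicle and from 7.11 to 7.56 under CL316243, and in LKO mice from 6.63 to 6.77 and from 6.30 to 7.03. It was lower in LKO under CL316243 by 0.55 (log2 difference -0.55, adjusted p = 0.000176), and its interaction of -0.27 was not called (adjusted p = 0.276), nor was that of -0.18 without LKO CL316243 replicate 3.

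Among 8 genes reported as CREBH targets other than the 10, 5 were called higher in LWT and 4 in LKO, where 18.9% and 20.9% of all genes were. In either genotype 0 were called lower (19.4% of all genes in each), and the medians were 0.56 and 0.77. Under CL316243, 4 of the 8 were lower in LKO than in LWT and 1 was higher (8.17% and 7.74% of all genes), with a median of -0.55. Hamp, 1 of the 4 and named here for its weak call, was at -0.55 (adjusted p = 0.0467). That call was lost under 7 of 10 other settings and without any of 14 mice (adjusted p up to 0.121). Among them were LKO vehicle replicate 6 (adjusted p = 0.0532) and LKO CL316243 replicate 4 (-0.57, adjusted p = 0.0547). Creb3l3 was lower in LKO too, and its part in the levels of these 8 genes was not tested. Cidec, which encodes a lipid droplet protein, led in LWT at 7.14 (adjusted p = 3.89e-12) and was at 3.86 in LKO, an interaction of -3.28 (adjusted p = 0.000154). Fgf21, which encodes a fasting hormone, of LWT mice ranged from -2.45 to 0.67 under vehicle and from 2.75 to 4.73 under CL316243, a difference of 5.03. In LKO vehicle it was well above background on 0 of 6 arrays, so its called rise there, to -1.90 to 2.13, has no exact size. Apcs, an acute phase gene, rose in both genotypes, by 1.73 and 2.14.

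Relatives of Creb3l3 and its processing proteases numbered 7, of which Creb3l4 did not pass the filter. In LWT 4 of 6 were called higher and 0 lower (18.9% and 19.4% of all genes). The largest differences were in Creb3l2 (0.55), Atf6 (0.43) and Creb3 (0.28). The count of higher genes was 2 without any of LWT vehicle replicates 1, 2, 4, 5 and 6 or LWT CL316243 replicate 1. Without LWT CL316243 replicate 3 it was 1. It was also 1 without the filter on dim probes and 2 with only the groups compared, and the calls of Creb3l2 and Creb3 were lost in both. In LKO 3 were called higher, against 20.9% of all genes: Creb3l2 (1.06), Atf6 (0.89) and Mbtps2 (0.27). Atf6, another membrane-held transcription factor of the endoplasmic reticulum, was higher in LKO than in LWT under CL316243 by 0.47 (adjusted p = 0.00194), the opposite direction to Creb3l3. Mbtps1, the protease that makes the opening cut in CREBH, differed by -0.09 and -0.11, not called.

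Of 16 transcriptional regulators of apolipoprotein genes, 2 were called higher and 5 lower in LWT (18.9% and 19.4% of all genes). In LKO 2 were called higher and 7 lower (20.9% and 19.4% of all genes). The list medians were -0.03 in LWT and -0.35 in LKO. Ppara, named here as the gene behind the genotypes, is among the 7 (-0.69, and -0.43 without LKO CL316243 replicate 3). Srebf1, the regulator of lipogenesis, fell by 1.96 in LWT and by 3.21 in LKO. Ppargc1a (-1.47) and Nr0b2 (-1.36) followed in LWT, and Ppargc1b (-1.83) and Nr1d1 (-1.04) in LKO. The Nr0b2 call was lost under 4 of 10 other settings and without any of 15 mice (adjusted p up to 0.0957, and 0.0501 without LKO vehicle replicate 6). That of Nr1d1 was lost under 5 of 10, with the difference down to -0.47, and without any of 16 mice, among them LKO CL316243 replicate 3 (-0.68, adjusted p = 0.143) and replicate 4 (-0.93, adjusted p = 0.0905). Hnf4a, the main hepatocyte regulator of many apolipoprotein genes, differed by 0.30 in LWT and 0.33 in LKO, both called, but the LWT call was lost with quantile normalization and with the deposited series table, under which 0 of the 16 were called higher in LWT. The count of higher genes was 1 without any of 5 LWT mice in LWT and without any of 5 LKO mice in LKO.

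Of 18 genes for lipoprotein receptors, lipases and remodelling, all tested, 3 were called higher and 4 lower in LWT. Over all genes the shares were 18.9% and 19.4%. The list median was -0.04, against 0.01 over all genes. Among those called higher were Lipg, an endothelial lipase (1.14), and Sdc1, a heparan sulphate receptor for remnants (0.94). The size for Lipg is loose: its mean level under LWT vehicle was low, at -3.50. Its difference ran from 0.62 to 1.44 over the other settings, called in each. The count of higher genes was 6 without LWT CL316243 replicate 4. In LKO 2 were called higher and 3 lower (20.9% and 19.4% of all genes), with a median of -0.19. Under vehicle, 3 of the 18 were lower in LKO than in LWT, against 0.778% of all genes: Lpl (-1.06), Pltp (-1.06) and Lrp1 (-0.38). The Lrp1 call was lost without any of 13 mice, LKO vehicle replicate 6 among them (adjusted p = 0.0539), and under 4 of 10 other settings (adjusted p up to 0.603), and those of Lpl and Pltp when only the groups compared were fitted. With the mean of all kept probes Lpl was at -0.56 and not called (adjusted p = 0.277), which left 1 of the 18.

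Markers of other cells moved with treatment in part. The summed level of the 5 measured myeloid markers was 9.07 to 11.04 under vehicle against 10.4 to 23.6 under CL316243 in LWT mice, and 6.55 to 11.1 against 10.05 to 55.3 in LKO mice. That of 4 cholangiocyte markers (Krt19, Krt7, Epcam, Sox9) was 0.586 to 1.26 against 0.928 to 2.88 in LWT and 0.654 to 1.23 against 1.38 to 5.72 in LKO. The 6 Kupffer cell markers overlapped between all groups, at 39.0 to 91.5. The 4 endothelial markers were at 31.5 to 35.3 against 35.7 to 43.3 in LWT, and overlapped in LKO, at 28.3 to 38.4 against 30.3 to 40.4. The 5 stellate markers were at 46.7 to 64.9 against 55.1 to 74.1 in LWT and at 42.6 to 61 against 57.5 to 72.7 in LKO, with the medians higher under CL316243 in both genotypes. Intestine also expresses Apoa4, Apob, Mttp and Creb3l3: of 4 enterocyte markers, Sis and Alpi did not pass the filter, and Fabp2 and Vil1 summed to 30.2 to 38.4 against 33.5 to 70.8 in LWT and to 24.6 to 40.8 against 23.96 to 30.2 in LKO. Adipoq, the defining adipocyte marker, did not pass the filter, and the other 3 adipocyte markers summed to at most 1.67. The part of these cells in the results on the 10 genes was not tested.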

How the data were processed

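Liver RNA of 24 mice was labelled with Cy3 from 200 ng per sample and read on Agilent single-colour arrays, 3 slides of 8 with 2 mice of each group per slide. Spot intensities came from the authors' run of Agilent Feature Extraction (10.10.1.1 in the submitters' processing notes and file headers), and the processed intensity is corrected for background. The deposited series table holds log2 values, which matched quantile-normalized log2 median signals within 0.01 for 99.3% of values over 31367 probes, and served as an alternative. Other columns used are the deposited per-spot flags and the annotation (symbol, mm9 position), per the file headers.

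Control spots and spots flagged as outliers were left out, spots of a probe were averaged as log2 and the 75th percentile of the array was taken off. Probes were kept where 4 or more of the 6 arrays of any group were well above background and every group held 3 values, and the brightest kept probe stood for its gene. R 4.3.3 with limma 3.58.1 (and the data.table package, 1.17.8) fitted 4 group means over all 24 arrays (20 residual degrees of freedom), with Benjamini-Hochberg adjustment within each of 5 comparisons. The number of arrays limits precision: the median SE was 0.132 for a difference of 2 groups and 0.187 for the interaction. Single differences were checked with exact permutation tests. The fit was tested on simulated data. The labels number separate mice within each group, and p-values measure the spread between them.

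The 10 genes and all lists were chosen with earlier results of these data known. All 10 genes are named in every comparison; of each list, up to 3 called genes with the largest change are named (all where fewer than 4 were called), and names outside this rule are marked. Some genes that the rule names are not reported here. Alternatives covered background correction, normalization, the series table, filters, probe averaging, slide, row and replicate blocks, the groups fitted, and each mouse left out. Same-numbered mice of different groups deviated from their group means with correlations of -0.183 to 0.424 (median 0.05) over 36 pairs, 11 of them over 0.1. For differently numbered mice these were -0.466 to 0.372 (median -0.01) over 180 pairs, 20 of them over 0.1. The same-numbered pairs were thus somewhat more alike, and whether the numbers pair mice was not settled. The main fit did not pair them, and the replicate block gives the alternative. Protein sequences were not used here.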

Additional observations from a re-analysis of the deposited data

Results flagged for a closer look

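Across the 40 combinations of gene and group, a single mouse stood apart from the other 5 of its group by Dixon's criterion in 4; chance alone flags about 1 in 20 such groups. Apoa1 in LWT CL316243 replicate 1 was at 8.01, with the nearest other mouse at 7.85. Apoc3 in LWT CL316243 replicate 3 was at 8.80, with the nearest at 9.06. Apoa2 and Apoe in LKO vehicle replicate 6 were at 9.74 and 9.90, with the nearest others at 9.46 and 9.41, and this is the array whose 100 brightest genes lay a median of 0.25 above their group means; the part of that shift in these levels was not tested.

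The response to CL316243 was called different between genotypes, by the interaction term, for Apoa4 (-1.52), Creb3l3 (-0.72) and Mttp (-0.54), each smaller in LKO. The call of Mttp was lost under 6 of 9 other settings and without any of 13 mice, and that of Creb3l3 without the filter on dim probes.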

How the results depend on the processing

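The direction of every called difference of the 10 genes was kept under the 10 other settings run and with each of the 24 mice left out. Of 490 single results under those settings, 462 stayed on their side of the threshold, 24 lost their call and 4 gained one. With a mouse left out, 1154 stayed, 37 lost their call and 9 gained one. These totals include the many differences not called in the main fit, which could not lose a call. The losses therefore fall on the called differences alone, and the totals do not measure how firm those calls were. The count of called genes in LKO (4) was 2 with quantile normalization, 2 with the series table, 1 without the filter on dim probes and 2 with only the groups compared, and 1 to 5 with a mouse left out; in the case without the filter more genes are tested, and otherwise the cause was not tested. The interaction count (3) was 1 without the filter, and 2 to 3 with a mouse left out. With a replicate block, Creb3l3 under vehicle was called (-0.49, adjusted p = 0.0164), which made that count 1 in place of 0, as did leaving out some mice (0 to 1), and Apoa1 in LKO was not called (adjusted p = 0.0528); the block ended or made no other call of the 10 genes. Apob under CL316243 was called higher in LKO with quantile normalization (0.24) and the series table (0.26), and without LKO vehicle replicate 6 (adjusted p = 0.0446). The lists were put through these settings after the data were seen, counting only differences called in the main fit. Of 1075 such single results, 86 lost their call and 0 changed sign. Signals near background limit Fgf21 in LKO vehicle, Lipg in LKO and the dim probe of Mttp.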
